A study of Mus musculus with 4 samples.

Results

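The 9 enzymes that make lanosterol and carry it towards cholesterol were followed in mouse liver RNA: Lss, Cyp51, Tm7sf2, Msmo1, Nsdhl, Hsd17b7, Ebp, Sc5d and Dhcr7, given throughout in pathway order. They were picked by gene symbol, and all 9 were found among the 33639 genes of the count and TPM tables. The 4 genotypes were sequenced from the liver of 1 male mouse each: a global Cyp27a1 knockout (Cyp27a1 KO), a global knockout whose labels give both Cyp3a and the human symbol Cyp3a4 (Cyp3a KO), a mouse with both deletions (DKO), and a wild type mouse (WT). All were untreated and fed chow freely, 4 to a cage, under a 12 h light and 12 h dark cycle. The sources used here give neither strain, nor age, nor the hour of tissue collection. CYP27A1 is the mitochondrial sterol side-chain hydroxylase of bile acid synthesis, and CYP3A enzymes hydroxylate bile acids, sterols and drugs; the study asked how loss of these genes affects bile acid synthesis. A single library stood for each genotype, so differences carry no replicate check, genotypes were not tested against one another, and intervals cover counting error only.

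Lanosterol is the first sterol of the pathway, and turning it into cholesterol means stripping methyl groups from the ring system, moving one ring double bond and reducing others. The same ring enzymes serve both branches. In the Bloch branch the side-chain double bond is kept to the end and desmosterol is the last intermediate; in the Kandutsch-Russell branch the side chain is reduced early, and the final steps run through lathosterol to the substrate of DHCR7. Genes of the pathway are known targets of SREBP2, a transcription factor that is released from the endoplasmic reticulum when sterols are scarce, and liver is a main site of cholesterol synthesis.

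Library totals lay between 49745860 and 50378101 estimated counts, and mitochondrial genes took 5.53% to 7.32% of them. The deleted genes followed the labels. Cyp27a1 was at 57.6 counts scaled per 1000000 (CPM) in Cyp27a1 KO and 65.3 CPM in DKO, against 727 CPM in Cyp3a KO and 746 CPM in WT. Cyp3a11, the main hepatic Cyp3a gene, was at 0.160 CPM in Cyp3a KO and 4.76 CPM in DKO, against 23706 CPM in Cyp27a1 KO and 8742 CPM in WT. Summed CPM of 6 hepatocyte markers was 58229 in Cyp27a1 KO, 63158 in Cyp3a KO, 83239 in DKO and 99714 in WT. Alb made up most of that sum, with 65721 CPM in DKO and 72499 CPM in WT; the median log2 fold of the 6 over WT was -0.48 in Cyp27a1 KO, -0.40 in Cyp3a KO and -0.45 in DKO. No marker of any cell type examined was at 0 in any library. Fewer cells of a type and less RNA per cell cannot be told apart in bulk liver.

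All 9 enzymes were highest in DKO, and 8 of the 9 were lowest in WT; the exception was Hsd17b7, which was lowest in Cyp27a1 KO. Their CPM summed to 1499 in Cyp27a1 KO, 1829 in Cyp3a KO, 3722 in DKO and 813 in WT, so that Cyp27a1 KO had 1.84 times, Cyp3a KO 2.25 times and DKO 4.58 times the WT sum. For a call, the difference on CPM plus 0.5 had to reach 2-fold, the mean over the 4 libraries 1 CPM, and the 95% interval of the count ratio had to leave out 1; calls are descriptions of these libraries. All 9 enzymes cleared the level filter in every library, the lowest value being 27.3 CPM for Lss in WT, so none entered through one genotype alone.

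**Figure D1:**
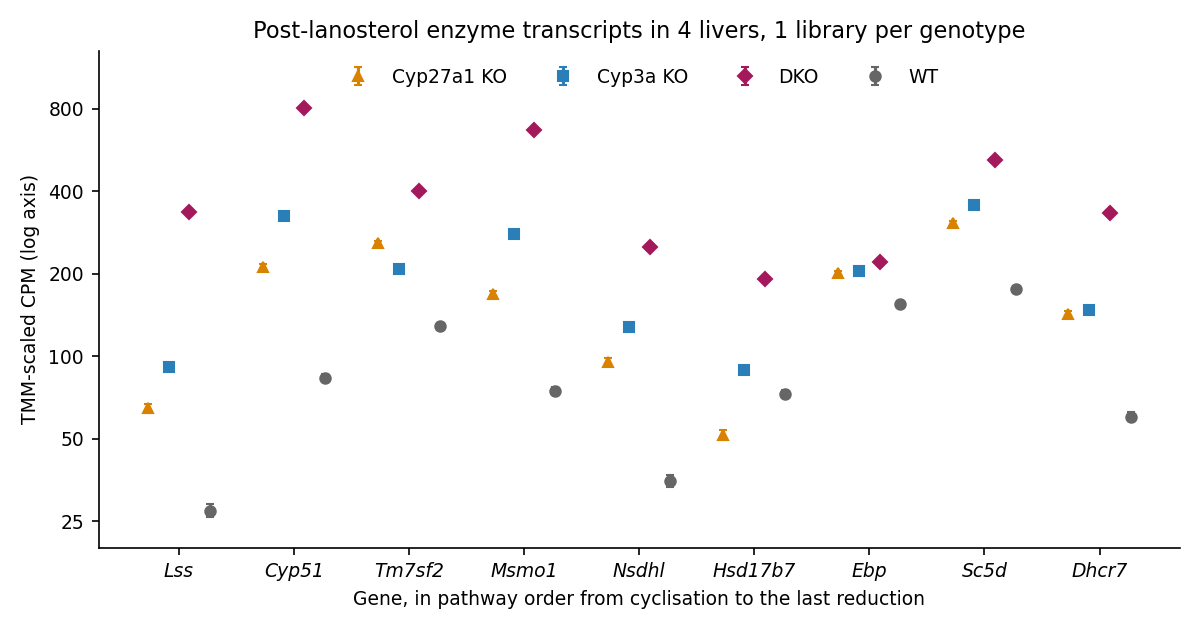
CPM of the 9 enzymes in pathway order on a log axis, 1 point per library with its exact 95% Poisson interval, in the order Cyp27a1 KO, Cyp3a KO, DKO and WT. The DKO point is the highest of each enzyme, and Ebp, at 154.9 to 220.1 CPM, has the flattest profile.

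Promoters of 4 enzymes are printed because the data place them at opposite ends, Lss and Msmo1 with large folds and Hsd17b7 and Ebp apart from the rest. Each sequence runs 5′ to 3′ on the strand of the gene, from 250 bases before the RefSeq transcription start to 50 bases after it (GRCm38.p6), and capitals mark CCAAT, the box bound by NF-Y, or its reverse complement. They lie at chr10:76531355-76531654 (plus strand, Lss), chr8:64733529-64733828 (minus, Msmo1), chr1:169969156-169969455 (minus, Hsd17b7) and chrX:8193463-8193762 (minus, Ebp).
Lss: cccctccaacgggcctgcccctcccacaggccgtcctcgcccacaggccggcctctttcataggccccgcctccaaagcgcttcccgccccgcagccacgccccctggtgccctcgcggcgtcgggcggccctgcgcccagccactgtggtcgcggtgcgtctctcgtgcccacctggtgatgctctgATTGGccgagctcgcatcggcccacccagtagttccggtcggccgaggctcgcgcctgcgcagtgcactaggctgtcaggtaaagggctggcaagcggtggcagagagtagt
Msmo1: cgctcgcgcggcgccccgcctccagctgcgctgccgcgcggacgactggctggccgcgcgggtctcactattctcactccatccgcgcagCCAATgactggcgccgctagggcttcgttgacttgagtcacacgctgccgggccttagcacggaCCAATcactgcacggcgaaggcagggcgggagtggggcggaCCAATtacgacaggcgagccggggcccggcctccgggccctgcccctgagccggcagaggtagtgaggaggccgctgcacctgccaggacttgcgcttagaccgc
Hsd17b7: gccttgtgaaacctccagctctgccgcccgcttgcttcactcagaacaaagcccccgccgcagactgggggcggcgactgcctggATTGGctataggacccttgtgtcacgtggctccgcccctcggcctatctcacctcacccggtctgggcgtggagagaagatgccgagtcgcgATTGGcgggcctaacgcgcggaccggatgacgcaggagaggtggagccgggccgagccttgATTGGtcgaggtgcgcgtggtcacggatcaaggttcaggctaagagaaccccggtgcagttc
Ebp: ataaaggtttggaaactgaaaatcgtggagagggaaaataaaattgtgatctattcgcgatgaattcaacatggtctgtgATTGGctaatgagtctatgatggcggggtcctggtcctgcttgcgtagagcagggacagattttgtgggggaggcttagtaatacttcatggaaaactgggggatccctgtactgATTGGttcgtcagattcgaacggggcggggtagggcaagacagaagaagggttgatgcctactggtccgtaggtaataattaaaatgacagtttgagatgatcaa
CCAAT lies 62 bases before the start of Lss, 160, 96 and 55 bases before that of Msmo1, 165, 73 and 12 bases before that of Hsd17b7, and 170 and 55 bases before that of Ebp. Every one of the 9 enzymes has at least 1 CCAAT. By single start it is in 9 of their 11, against 37.4% of 32851 RefSeq mouse promoters of this length. By gene, over any start, the share was 42.9% of the 8927 genes that passed the level filter and have a promoter there. GGGCGG, bound by SP1, is likewise in all 9 enzymes, against 35.7% of single promoters and 67.8% of those genes. CACGTG, an E-box, is in Hsd17b7, Sc5d and Dhcr7, against 7.15% and 11.8%. TCACNCCAC, a form of the SREBP element, is in none of the 9, against 1.24% and 1.47%. At shares this low, its absence from 9 genes says little, and other forms of the element were not searched. Both strands were searched, no match overlapped one of another motif, and Dhcr7 counts over its 3 starts. As all 9 hold the CCAAT box, its presence cannot separate enzymes with large folds from those with small ones.

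The step that makes lanosterol and the one after it, Lss and Cyp51, had the widest DKO folds of the 9 enzymes. Lss (GRCm38 chr10:76531588-76557138, plus strand), the cyclase that closes squalene epoxide into lanosterol, was at 64.5 CPM in Cyp27a1 KO, 91.6 CPM in Cyp3a KO, 337 CPM in DKO and 27.3 CPM in WT. It was 12.3 times as high in DKO as in WT (95% interval 11.7 to 13.1), the widest fold of the 9, against 3.36 times in Cyp3a KO and 2.36 times in Cyp27a1 KO. An antisense transcript, 4930483K19Rik, overlaps Lss and was not analysed here, so reads it may add cannot be told apart. Cyp51 (chr5:4081145-4104746, minus strand), the P450 that takes the first methyl group off lanosterol, was at 212 CPM in Cyp27a1 KO, 325 CPM in Cyp3a KO, 803 CPM in DKO and 83.6 CPM in WT. Its fold over WT was 2.54 (2.45 to 2.63) in Cyp27a1 KO, 3.89 (3.76 to 4.03) in Cyp3a KO and 9.61 (9.30 to 9.93) in DKO. Tm7sf2 (chr19:6062821-6068373, minus strand), a reductase of the ring double bond that CYP51 leaves, followed with smaller steps, at 258 CPM in Cyp27a1 KO, 207 CPM in Cyp3a KO, 401 CPM in DKO and 129 CPM in WT. In CPM it is the one enzyme of the 9 that was higher in Cyp27a1 KO than in Cyp3a KO, and its Cyp27a1 KO fold of 1.998 fell just short of a call while its DKO fold of 3.11 was called. The Tm7sf2 and Vps51 genes overlap on the same strand and share exon sequence over 532 bases; Vps51 had 837 to 978 counts per library against 6016 to 21728 for Tm7sf2. Cyp51 overlaps Akap9 exons on the opposite strand, and the library kit does not mark strand, so reads of the overlap cannot be told apart; Akap9 had 1499 to 1965 counts, against 3897 to 43501 for Cyp51.

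Removal of the remaining ring methyl groups takes Msmo1, Nsdhl and Hsd17b7 in turn. Msmo1 (chr8:64718139-64733792, minus strand), the oxidase that starts each round, was at 169 CPM in Cyp27a1 KO, 279.6 CPM in Cyp3a KO, 669 CPM in DKO and 74.6 CPM in WT. Cyp27a1 KO had 2.26 times, Cyp3a KO 3.75 times and DKO 8.96 times the WT level. Nsdhl (chrX:72918557-72958514, plus strand), the dehydrogenase and decarboxylase of the round, was at 95.4 CPM in Cyp27a1 KO, 127 CPM in Cyp3a KO, 249 CPM in DKO and 35.1 CPM in WT, a fold over WT of 2.72 (2.57 to 2.88) in Cyp27a1 KO, the highest of the 9 there, and of 7.10 in DKO. Hsd17b7 (chr1:169949535-169969241, minus strand), the keto-reductase that closes the round, kept apart. It was at 51.6 CPM in Cyp27a1 KO, 88.9 CPM in Cyp3a KO, 191 CPM in DKO and 72.5 CPM in WT, so that Cyp27a1 KO stood below WT by a log2 fold of -0.49 and, of the comparisons with WT, only DKO was called, at 2.64 times WT (2.54 to 2.74). In TPM, which divides by transcript length, its Cyp27a1 KO level was 19.9 and its WT level 20.6. On that scale its log2 fold was -0.05, or -0.22 once recentred on the median gene. Its CPM per TPM was 2.60 in Cyp27a1 KO, 3.41 in Cyp3a KO, 2.59 in DKO and 3.53 in WT, the lowest ratio to WT of the 9 enzymes in Cyp27a1 KO at 0.737; whether transcript forms shifted was not tested.

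The last ring steps move and set the double bonds of the second ring. Ebp (chrX:8185329-8193512, minus strand), the isomerase, was at 200.4 CPM in Cyp27a1 KO, 205 CPM in Cyp3a KO, 220.1 CPM in DKO and 155 CPM in WT. It was the one enzyme called in no comparison, at 1.42 times WT in DKO (1.38 to 1.46). Sc5d (chr9:42251595-42264256, minus strand), the desaturase that acts on lathosterol in the Kandutsch-Russell branch, was at 305 CPM in Cyp27a1 KO, 356 CPM in Cyp3a KO, 518 CPM in DKO and 175 CPM in WT. Its Cyp3a KO fold of 2.03 (1.98 to 2.08) passed the rule narrowly and its Cyp27a1 KO fold of 1.74 did not, while DKO reached 2.95 times WT. Dhcr7 (chr7:143823145-143848410, plus strand), the reductase that finishes the Kandutsch-Russell branch, was at 143 CPM in Cyp27a1 KO, 148 CPM in Cyp3a KO, 334 CPM in DKO and 60.1 CPM in WT. The single knockouts lay close together, at 2.38 times WT in Cyp27a1 KO and 2.46 times WT in Cyp3a KO, and DKO was at 5.55 times WT. Stretches of about 200 bases of Dhcr7 transcripts recur at 90% identity or more in transcripts of many other genes, the longest 227 bases, so counts of reads placed there are uncertain.

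Of the 9 enzymes, 5 were called higher in Cyp27a1 KO than in WT, against 2.44% of all 11743 genes that passed the filter: Lss, Cyp51, Msmo1, Nsdhl and Dhcr7. In Cyp3a KO, 6 were called higher than in WT, with Sc5d added, against 2.56% of all genes. In DKO, 8 were called higher than in WT, all but Ebp, against 6.0% of all genes. None was called lower in any of the 5 comparisons, where lower calls took 1.36% of all genes in Cyp27a1 KO, 1.86% in Cyp3a KO and 4.02% in DKO against WT, 2.59% in DKO against Cyp27a1 KO and 2.7% in DKO against Cyp3a KO. The median log2 fold over the 9 was 1.17 in Cyp27a1 KO, 1.29 in Cyp3a KO and 2.46 in DKO, against medians between -0.015 and 0.0073 over all genes. These 3 comparisons share the WT library, so they are not independent of one another.

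**Figure D2:**
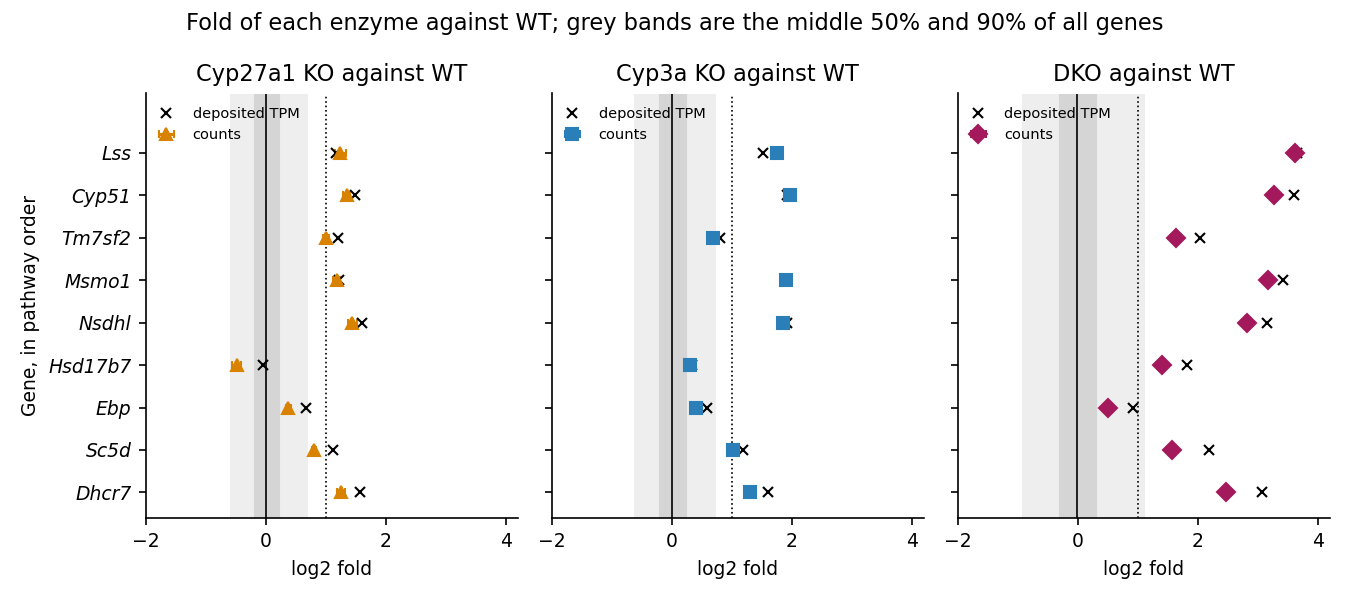
Log2 fold of each enzyme over WT in Cyp27a1 KO, Cyp3a KO and DKO: coloured points from scaled counts with 95% counting intervals, crosses from TPM, a dotted line at 2-fold, and grey bands holding the middle 50% and 90% of all genes that passed the filter. The DKO points run from Ebp, at 1.42 times WT, to Lss, at 12.3 times WT.

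Each deletion can also be read against the mouse that already carries the other one. DKO stood above Cyp27a1 KO by at least 2-fold in 6 of 9 enzymes, against 2.84% of all genes: Lss at 5.22 times, Msmo1 at 3.96, Cyp51 at 3.78, Hsd17b7 at 3.70, Nsdhl at 2.61 and Dhcr7 at 2.33 times. DKO stood above Cyp3a KO by at least 2-fold in 5 of 9, against 4.02% of all genes: Lss at 3.68 times, Cyp51 at 2.47, Msmo1 at 2.39, Dhcr7 at 2.25 and Hsd17b7 at 2.15 times. Tm7sf2, at 1.94 times, and Nsdhl, at 1.96 times, lay just outside the rule there. The deposited TPM placed both, and Sc5d, above it, before removal of a shift of 0.24 log2 over all genes. Median log2 folds were 1.38 for DKO over Cyp27a1 KO and 1.10 for DKO over Cyp3a KO.

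Cyp27a1 loss was measured in DKO against Cyp3a KO and in Cyp27a1 KO against WT, 2 pairs with no library in common. Lss, Cyp51, Msmo1 and Dhcr7 were called higher in both, that is 4 of 9 enzymes against 0.988% of all genes. On TPM recentred on the median gene, Lss lost its call in Cyp27a1 KO against WT, at a log2 fold of 0.98. Cyp3a loss was likewise measured in DKO against Cyp27a1 KO and in Cyp3a KO against WT. Those enzymes and Nsdhl, 5 of 9, were called higher in both, against 0.758% of all genes. Both losses are read from the same libraries, so these counts are not independent of one another. Hsd17b7 was the one enzyme whose sign differed between pairs: with Cyp27a1 lost, its log2 fold was 1.10 on the Cyp3a-deleted background and -0.49 on the intact one.

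**Figure D3:**
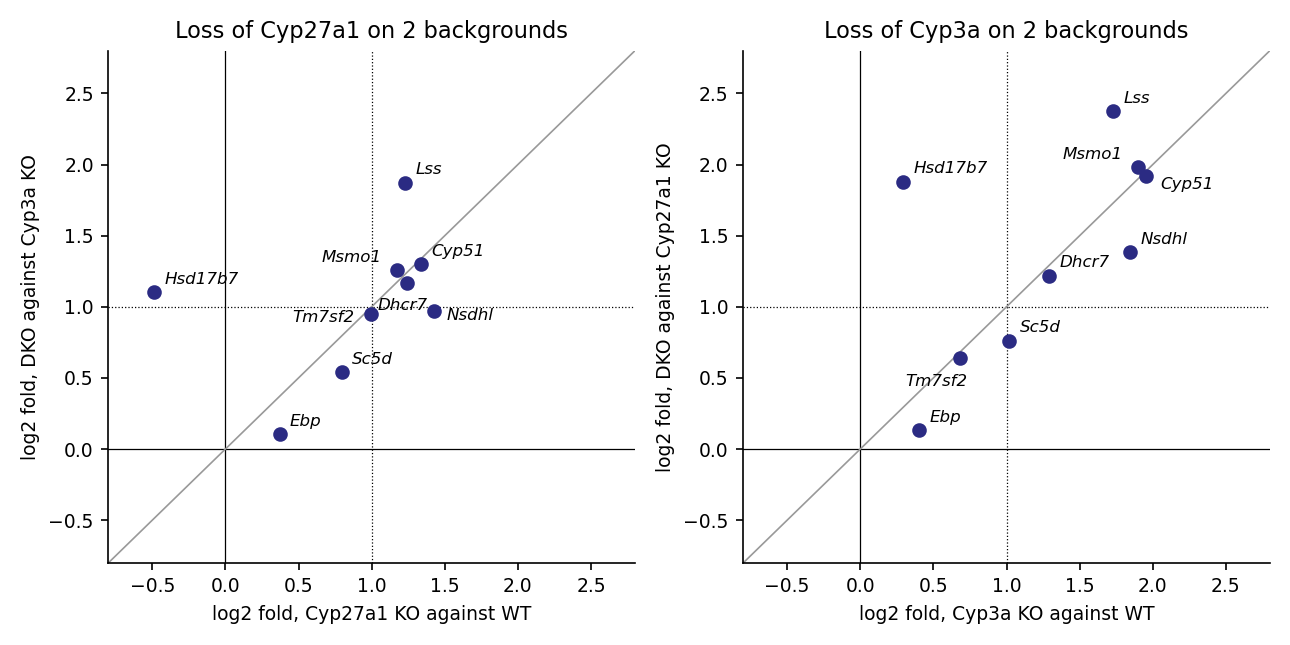
Log2 fold of each enzyme for loss of Cyp27a1 and loss of Cyp3a, with the pair that has the other gene deleted up the page and the pair that has it intact along it; solid diagonal, equal folds; dotted lines, 2-fold. Hsd17b7 is left of 0 for Cyp27a1 loss, at -0.49, and Lss is highest for Cyp3a loss, at 2.38.

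Where both deletions combine, the log2 level in DKO was set against the sum of the single differences. The departure was 0.65 for Lss (95% counting interval 0.54 to 0.75) and 1.59 for Hsd17b7 (1.5 to 1.7), both above additivity. Msmo1, at 0.08 (0.02 to 0.15), lay close to 0 on counts, as did Cyp51 at -0.04, Tm7sf2 at -0.04 and Dhcr7 at -0.07. Nsdhl at -0.46, Ebp at -0.27 and Sc5d at -0.26 lay below additivity. The median over the 9 was -0.04, against -0.02 over all genes, and 3 of 9 were above 0, against 47.6% of all genes. On TPM the median was 0.04, against 0.06 over all genes, and 5 of 9 were above 0. On TPM recentred on the median gene, it was -0.02 and 4 of 9 were above 0. By enzyme, Msmo1 was at 0.32 on TPM and 0.26 recentred, Cyp51 at 0.21 and 0.16, and Sc5d at -0.12 and -0.17. Which enzymes lie close to 0, and the sign of Cyp51, thus depend on the measure.

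TPM was used to rank the enzymes against one another, since it allows for length; single libraries give these orders no spread. In WT the order from high to low was Ebp (195 TPM), Tm7sf2 (121), Sc5d (92.1), Msmo1 (63.6), Dhcr7 (38.2), Cyp51 (36.7), Hsd17b7 (20.6), Nsdhl (20.2) and Lss (13.6). The order in Cyp27a1 KO was the same down to Cyp51, and Ebp again led at 309 TPM. In Cyp3a KO, Ebp led at 293 TPM, followed by Msmo1 at 236 TPM. In DKO, Msmo1 led at 687 TPM, Tm7sf2 had 498, Cyp51 453, Sc5d 421, Ebp 369.9 and Dhcr7 323 TPM, and Ebp was no longer first. Lss, at 177 TPM in DKO, and Hsd17b7, at 74.0 TPM, stayed at the low end. The highest enzyme exceeded the lowest 15.6 times in Cyp27a1 KO, 11.3 times in Cyp3a KO, 9.29 times in DKO and 14.3 times in WT. Neighbours such as Hsd17b7 and Nsdhl or Dhcr7 and Cyp51 in WT lie too close for single libraries to order them.

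**Figure D4:**
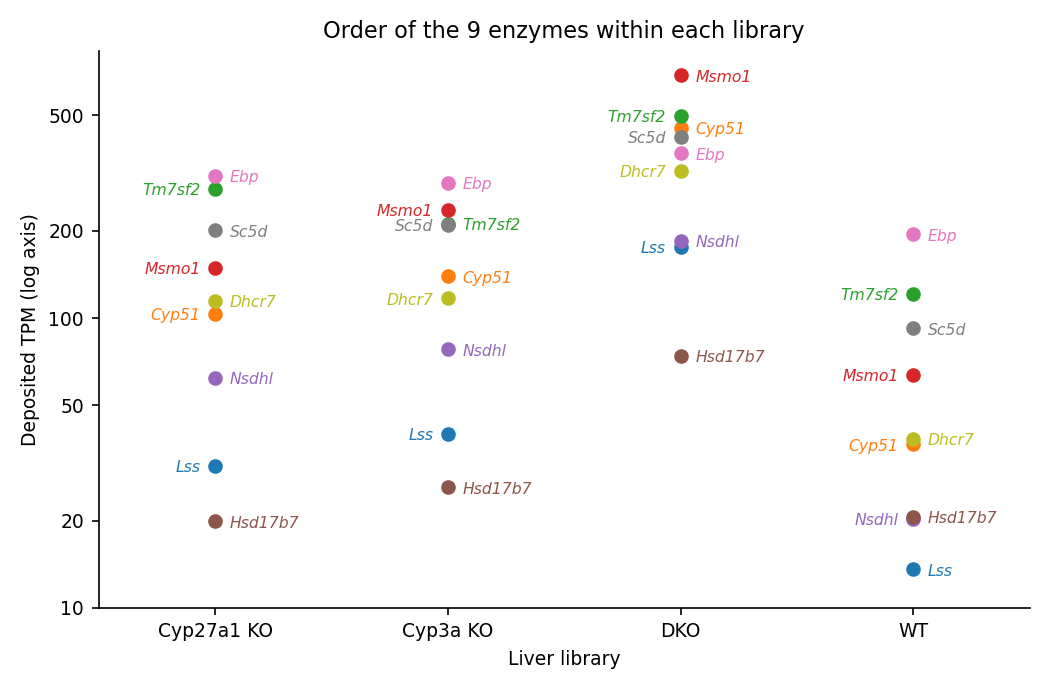
TPM of the 9 enzymes, 1 point per enzyme and library on a log axis, with the names beside the points. Ebp leads in Cyp27a1 KO, Cyp3a KO and WT but ranks below Msmo1, Tm7sf2, Cyp51 and Sc5d in DKO.

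Outside the 9 enzymes, 2 further genes of the ring steps can be set beside them. Lbr, a lamin-binding membrane protein that shares the reductase activity of TM7SF2, was at 8.90 CPM in Cyp27a1 KO, 12.3 CPM in Cyp3a KO, 15.3 CPM in DKO and 12.1 CPM in WT, uncalled throughout. In TPM, Tm7sf2 lay far above Lbr in each library, at 498 against 8.11 TPM in DKO. The row 0610007P14Rik, for which RefSeq gives the synonym Erg28, a scaffold of the demethylation enzymes, had log2 folds over WT of 0.49 in Cyp27a1 KO, 1.01 in Cyp3a KO and 1.70 in DKO, the last 2 called. Levels of transcripts give no flux through either branch.

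Electrons for CYP51 come from the reductase POR, and those for MSMO1 and SC5D from cytochrome b5. Of 6 genes listed for such electron transfer, among them the binding partners Pgrmc1 and Pgrmc2, none was called in any of the 5 comparisons. Higher calls took 2.44% to 6.0% of all genes there, so an absence of calls among 6 says little. The 6 had a median log2 fold over WT of 0.56 in Cyp27a1 KO, 0.37 in Cyp3a KO and 0.63 in DKO. Medians over all genes lay between -0.015 and 0.0073. Cyb5a was nearest the rule, at a log2 fold of 0.88 in DKO, and Por was at 0.51. Upstream of Lss, 6 of 11 genes of the mevalonate arm were called higher in Cyp27a1 KO than in WT (median log2 fold 1.06), 10 of 11 in Cyp3a KO (median 1.64) and 10 of 11 in DKO (median 3.0). Idi1, the isomerase that makes the reactive isoprene unit, had 229.6 CPM in Cyp27a1 KO, 433 CPM in Cyp3a KO, 1139.7 CPM in DKO and 68.8 CPM in WT. Its DKO fold of 4.04 on the log2 scale exceeded that of Lss. Ggps1, which leads to isoprenoids outside the sterol branch, had a DKO log2 fold of -0.22. Of 12 genes for SREBP2 control and sterol uptake, none was called in Cyp27a1 KO against WT, 3 were called higher in Cyp3a KO, and in DKO 4 were called higher and 1 lower, where 6.0% of all genes were called higher and 4.02% lower. Stard4, a cytosolic sterol carrier, had a DKO log2 fold of 1.62, and Insig2, which retains SREBP in the membrane, -1.19. Of 8 genes for LXR receptors and their targets, some of which export sterols, none was called against WT in Cyp27a1 KO or Cyp3a KO. In DKO 3 were called higher than in WT, Abcg5 at a log2 fold of 1.6, Abcg8 at 1.52 and Abcg1 at 1.07.

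**Figure D5:**
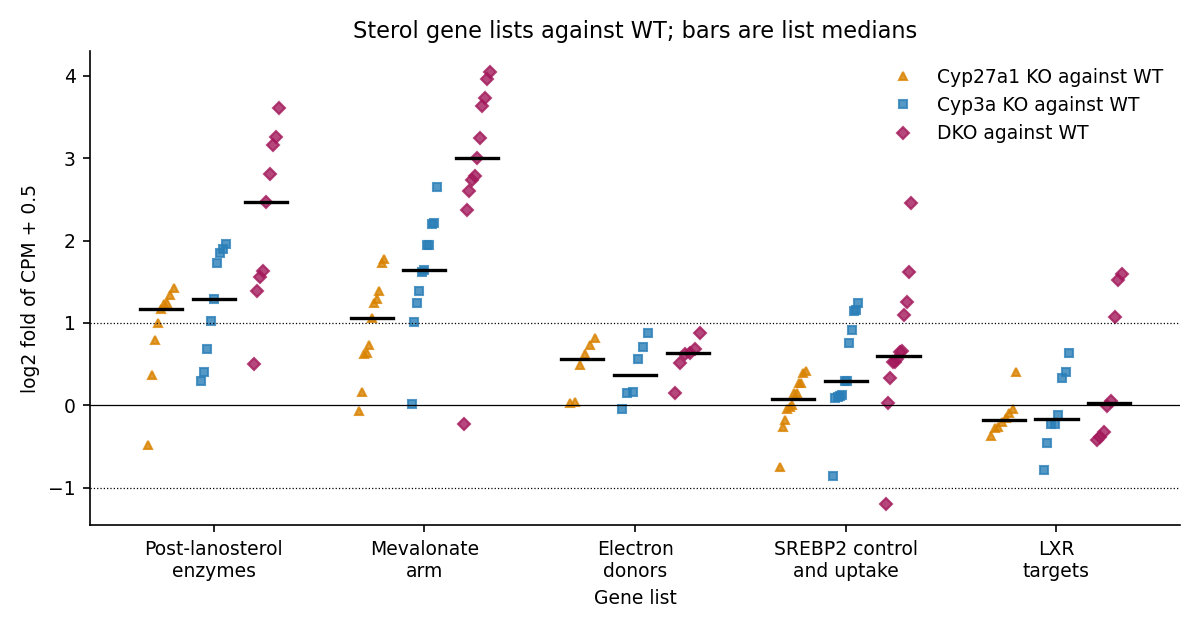
Log2 folds over WT of the 9 enzymes, the mevalonate arm, electron donors, SREBP2 control with uptake, and LXR targets, 1 point per gene that passed the filter, bars at list medians, for Cyp27a1 KO, Cyp3a KO and DKO. The 9 enzymes have medians of 1.17, 1.29 and 2.46, and the mevalonate arm 1.06, 1.64 and 3.0.

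Across all 4 libraries, 6 genes outside the lists lay closest to the mean profile of the 9 enzymes, by root mean square distance of centred log2 values: Exosc8 (0.0844), Erlin1 (0.0863), Slc6a5 (0.0928), Ccl9 (0.112), Tnfrsf19 (0.131) and Cyp2c38 (0.141). Slc6a5 was low, at 0.562 CPM in Cyp27a1 KO, 0.839 CPM in Cyp3a KO, 2.70 CPM in DKO and 0.0858 CPM in WT; it passed the level filter through DKO, and its profile leans on the added 0.5. Among the enzymes Dhcr7 was nearest to that mean, at 0.133, and Ebp farthest, at 0.639.

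Other measures also differed between the libraries, though not always in step with the 9 enzymes. Dbp, a clock output gene, was at 1.22 CPM in Cyp27a1 KO, 28.9 CPM in Cyp3a KO, 50.03 CPM in DKO and 2.06 CPM in WT, and Arntl, of the opposite phase, was at 28.9 CPM in Cyp27a1 KO, 10.6 CPM in Cyp3a KO, 1.98 CPM in DKO and 29.6 CPM in WT. Synthesis of cholesterol in mouse liver is known to follow the day. The Kupffer cell markers summed to 178 CPM in Cyp27a1 KO, 113 CPM in Cyp3a KO, 291 CPM in DKO and 169.5 CPM in WT. Of these 6 markers, 2 were called higher in DKO than in WT, Adgre1 and Cd5l, against 6.0% of all genes. Erythroid markers summed to 448 CPM in Cyp27a1 KO, 286 CPM in Cyp3a KO, 279.9 CPM in DKO and 608 CPM in WT. The globin genes Hba-a2, Hbb-bs and Hbb-bt were called lower than in WT in both Cyp3a KO and DKO. Hba-a1 was called lower in Cyp3a KO, and Hbb-bt also in Cyp27a1 KO. Lower calls against WT took 1.36% of all genes in Cyp27a1 KO, 1.86% in Cyp3a KO and 4.02% in DKO. Alas2, an enzyme of haem synthesis, was called lower in DKO, at 29.2 CPM against 87.7 CPM in WT. Its level was above WT in Cyp27a1 KO, at 146 CPM, and in Cyp3a KO, at 103 CPM. Of the hepatocyte markers, 2 of 6 were called lower in DKO than in WT: Serpina1c at 2974 CPM in DKO against 9126 CPM in WT, and Ttr at 1831 CPM in DKO against 4129 CPM in WT. The cell-cycle genes Mki67, Top2a, Ccnb1, Cdc20, Cdk1 and Ccna2 were highest in DKO, between 4.65 CPM (Ccna2) and 7.94 CPM (Mki67), and lay between 0.193 CPM (Ccnb1 in WT) and 1.49 CPM (Mki67 in Cyp27a1 KO) in the other libraries; most of them passed the level filter through DKO, so their calls are not counted. The 5 lymphocyte markers were below the level filter. The part of clock phase, cell cycling or cell mix in the differences of the 9 enzymes was not tested.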

How the data were processed

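Liver RNA was sequenced from 4 mice, 1 per genotype; per the labels' protocols it was extracted with Qiagen RNeasy and made into TruSeq RNA v2 libraries, which do not mark strand. Per the submitters' processing notes, kallisto 0.43.1, HISAT2 2.0.5, Trimmomatic 0.33 and mm10 were used, in roles not stated. The authors deposited estimated counts per gene, with 57.7% of values whole, which were rounded before analysis. The authors also deposited TPM values, which serve comparisons between genes and one alternative.

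Counts were scaled with TMM (edgeR 4.0.16, R 4.3.3), and CPM are per 1000000 of the scaled total. Count ratio intervals are exact 95% Clopper-Pearson intervals, those of single counts are exact Poisson intervals, and both cover counting error only, as no molecular identifiers mark single molecules. No genotype was tested, as each has 1 library. The script was checked on simulated data that hold counting noise and no spread between animals, so they say nothing of false calls between single mice: for each of the 5 comparisons, the rule recovered 50 of 50 genes set at 3-, 4- or 8-fold, 0 of 50 set at 1.5-fold, and picked none of at least 11538 left unaltered. Named genes were the 9 enzymes, up to 4 genes with the largest DKO folds of each other list, Lbr and, by likeness, 6 genes; some items are not reported here; Ggps1 and Por were named after their values were seen. Coordinates come from GENCODE M21 (GRCm38), promoters from RefSeq, and near copies from minimap2 2.31-r1302. The members and lists were chosen with earlier results of these data known. Alternatives were library totals, DESeq2 1.42.0 size factors, TPM as deposited or recentred, a minimum of 5 CPM or none, 2 other pseudocounts (0.1 and 2), dropping the interval, and a rule of 4-fold.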

Additional observations from a re-analysis of the deposited data

Results flagged for a closer look

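Hsd17b7, the keto-reductase of the demethylation round, had values of opposite sign with loss of Cyp27a1: its log2 fold was 1.10 in DKO against Cyp3a KO, which was called, and -0.49 in Cyp27a1 KO against WT, which was not and lies within the middle 90% of all genes. What drew attention is the change of sign between 2 pairs of libraries that share none. With 1 library in each cell of the design, the difference was not tested. On TPM the values were 1.49 and -0.05, and on TPM recentred on the median gene 1.25 and -0.22.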

How the results depend on the processing

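No paired analysis was possible because each genotype has 1 library, and for the same reason no replicate could be left out. Of 270 alternative values of the 45 enzyme folds, none changed sign, though the 2 other pseudocounts could not have reversed one. Of 50 alternative counts of called enzymes, 44 stayed within 1.5 times the main one. The other minimum levels and the dropped interval could not move these counts. Every enzyme was at 27.3 CPM or more, and each difference of 2-fold had an interval clear of 1. The 4-fold rule left 0, 0, 5, 1 and 0 enzymes called (Cyp27a1 KO, Cyp3a KO and DKO against WT, then DKO against Cyp27a1 KO and against Cyp3a KO). Deposited TPM called 8 in DKO against Cyp3a KO, against 5 on counts, and moved the median departure from additivity to 0.0391. TPM shifts the median gene by 0.18, 0.09, 0.33, 0.16 and 0.24 log2 in these 5 comparisons. With that shift removed 5 were called in DKO against Cyp3a KO. Over all genes, TPM called 446 higher in Cyp27a1 KO than in WT (287 on counts), 1280 in DKO than in WT (705), and 736 in DKO than in Cyp3a KO (472); the share of calls that were higher was 77.6%, 82.7% and 77.7%, against 64.2%, 59.9% and 59.8%. A minimum of 5 CPM gave 454, 181 and 269 higher calls in the 3 comparisons of DKO, against 705, 333 and 472, and the 4-fold rule 65, 51, 197, 91 and 108. Library totals raised the share higher to 73.3% in DKO against WT. Recentred TPM also exchanged 2 calls in Cyp27a1 KO against WT, losing Lss and adding Tm7sf2. At these depths the 95% counting interval of Lss in DKO against WT ran from 11.7 to 13.1 around 12.3.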
